A study of Rattus norvegicus with 18 samples.

Results

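The regions described here are narrow peaks of 5-hydroxymethylcytosine (5hmC) that lie inside protein-coding genes, far from the transcription start. They are the rows of the deposited peak list marked as gene body in a protein-coding gene, more than 20000 bases from the start site and under 3000 bases wide. Of 215951 peaks, 60298 (27.9%) met this rule, in 6341 host genes. They are called far gene body peaks below. Primary rat Schwann cells were grown to passage 3 with vitamin C or, as controls, without it. Neither the dose of vitamin C nor the length of exposure is stated in the labels, and no genetic change is named in either group. The study made 3 vitamin C and 3 control libraries of each of 3 kinds: DNA enriched for 5hmC by immunoprecipitation (hMeDIP), input DNA that was not enriched, and total RNA depleted of ribosomal RNA.

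5hmC is made from 5-methylcytosine by the TET dioxygenases, which need iron and 2-oxoglutarate. Vitamin C (ascorbate) keeps the iron of such enzymes in its reduced state. In many cell types 5hmC is found along the bodies of transcribed genes, where it is read as a step towards demethylation and also as a stable mark. Schwann cells ensheath the axons of peripheral nerves and wrap some of them in myelin, and ascorbate is a standard supplement of cultures in which they make a basal lamina and myelin.

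Reads in peaks numbered 24020306 to 39899445 per hMeDIP library, 30.85% to 43.89% of the reads counted, and 7201638 to 9521037 per input library. Reads in genes numbered 23381814 to 33173282 per RNA library. A far gene body peak held a median of 116 hMeDIP reads and 32 input reads per library, and each of the 60298 passed the filter on low counts. The hMeDIP libraries numbered 1 and 3 of each group differed by no more than sampling noise (chi-square per degree of freedom 0.8962 with vitamin C and 0.9625 in controls). They were summed and counted as 1 sample, which leaves n = 2 per group for hMeDIP. The RNA library of vitamin C replicate 1 stood apart from the others. Since the labels name no separate animals or cultures behind the replicates, the p-values below may reflect technical spread only. The deposited list goes through the chromosomes 2 times. Their order is not numerical, and chromosome 1 comes up at several places in each stretch. The second stretch was taken to begin where positions on chromosome 12 drop back. These stretches, found from the positions alone, are called the first pass (68431 peaks) and the second pass (147520 peaks). The making of the list is not described in these sources, and direction of change differed so much between the passes that counts are given for each.

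By the distance rule, far gene body peaks sit in long genes. They lay a median of 65374 bases from the start, and up to 2065064, in transcripts with a median span of 140231 bases. Their median width was 673 bases, down to 256. Transcripts on the plus strand held 30637 of them. A host held a median of 4, and 1326 hosts held 1. At the other end 833 hosts held 20 or more, together 32247 of the peaks, and the largest number in 1 host was 240. Of the peaks, 875 lay past the end of the transcript the list gives. At the distance limit, the nearest peaks inside (Itgb8 at 20001 bases, Svil and Lpcat1 at 20002) had log2 changes of 1.02, -0.87 and 0.16. Those outside (Wdr1 at 19999, Gnaq at 19998, Fam102b at 19997) had 0.83, -0.23 and 0.06. At the width limit, peaks in Pcca, Stard13 and Arhgef26 (2999, 2998 and 2997 bases) had -0.19, 0.96 and 0.55, and those in Actn4, Nell1 and Runx2 just outside (3000, 3001 and 3002 bases) had 0.61, 0.21 and 0.21.

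With vitamin C the far gene body peaks held a larger part of the hMeDIP reads in peaks. They took 28.74%, 28.79% and 28.74% in the 3 vitamin C libraries, against 27.2%, 26.94% and 27.35% in the 3 control libraries. The groups did not overlap, and the means were 28.76 ± 0.0336% with vitamin C and 27.11 ± 0.24% in controls (SD, n = 2 each). An exact two-sided permutation test of 2 against 2 cannot go below the p = 0.333 that it gave. As a share of all counted hMeDIP reads, whether in a peak or not, they took 12.22 ± 0.584% with vitamin C and 8.764 ± 0.641% in controls (exact permutation p = 0.333, n = 2 each). In input DNA this share was 2.378 ± 0.0221% with vitamin C and 2.392 ± 0.0219% in controls (exact permutation p = 0.6, n = 3 each). The passes of the list differed here: first-pass far gene body peaks took 2.136% of all counted reads with vitamin C and 2.4% in controls, and second-pass peaks took 10.09% and 6.363%.

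Set over input, the share of hMeDIP reads in far gene body peaks was 4.98, 5.28 and 4.99 times the share of input reads in the vitamin C libraries, against 3.63, 3.44 and 4.1 times in the control libraries. The means were 5.13 ± 0.209 with vitamin C and 3.65 ± 0.301 in controls, a ratio of 1.41 (exact permutation p = 0.333, n = 2 each). For gene body peaks within 20 kb of the start the ratio of these means was 1.43, for intergenic peaks outside gene deserts 1.22 and for gene desert peaks 0.912. Within the first pass the far gene body peaks had 4.11 ± 0.0919 with vitamin C and 4.68 ± 0.209 in controls, and within the second pass 5.42 ± 0.247 and 3.37 ± 0.325. All 3 vitamin C libraries were thus below the controls in the first pass and above them in the second.

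**Figure D1:**
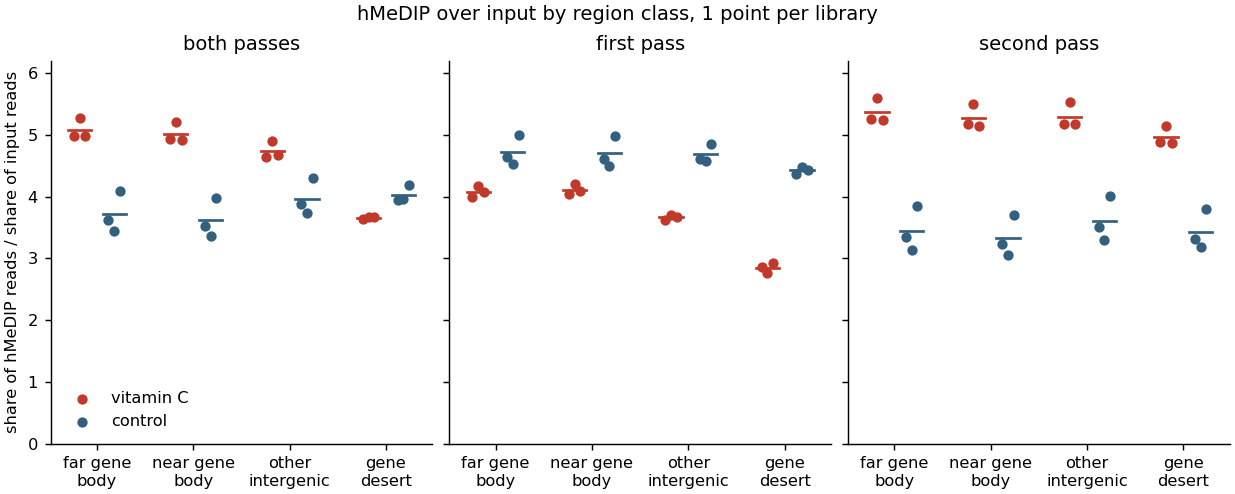
Share of hMeDIP reads divided by share of input reads (vertical axis, no unit) for 4 region classes, in both passes of the peak list and in each pass; each point is 1 library, vitamin C left of control, and lines are means of 3 libraries. Far gene body peaks range from 4.98 to 5.28 with vitamin C and from 3.44 to 4.1 in controls over both passes, and in the first pass from 4.0 to 4.17 and from 4.53 to 5.0.

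A ratio of region classes within a library needs no scaling factor. The log2 ratio of reads in far gene body peaks to reads in gene desert peaks was 5.128 ± 0.0527 with vitamin C and 4.542 ± 0.0783 in controls, a difference of 0.586. The difference was 0.422 within the first pass and 0.118 within the second. Against other intergenic peaks the difference was 0.196 over both passes, 0.142 in the first and 0.0878 in the second. Against gene body peaks within 20 kb of the start it was -0.0197, with log2 ratios of 1.122 ± 0.00328 with vitamin C and 1.142 ± 0.0054 in controls, and -0.0214 and -0.0208 within the passes. In each pass the ratio to near gene bodies was thus lower with vitamin C, and the ratios to both intergenic classes were higher. Each of the 3 comparisons had an exact permutation p = 0.333 (n = 2 each), also after adjustment over the 3. The same differences in input DNA were 0.000732 for near gene bodies, -0.0344 for gene deserts and -0.00691 for other intergenic peaks (exact permutation test, adjusted p = 0.7, 0.3 and 0.3, n = 3 each).

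Peak by peak, more far gene body peaks rose than fell in edgeR, while DESeq2 called nearly equal numbers. In edgeR's quasi-likelihood test with Benjamini-Hochberg adjustment, 26585 (44.1%) were higher with vitamin C and 17295 (28.7%) lower, against 36.9% higher and 36.3% lower among all 215951 peaks. DESeq2 called 15336 higher and 14676 lower. Their median log2 change was 0.172, and 0.052 over all peaks. The quartiles were -0.333 and 0.53. By more than 1 log2 unit, 2469 rose (4.09%) and 6154 fell (10.2%), against 2.97% and 15.9% of all peaks. That order turned with the scaling by all counted reads, under which 13512 rose (22.4%) and 706 fell (1.17%) by more than 1 log2 unit, against 17.7% and 1.67% of all peaks. These changes are relative to the average peak. Scaled by all counted reads instead, the median over all peaks was 0.486 and that of far gene body peaks 0.606, and 40983 (68.0%) were higher and 9910 (16.4%) lower, against 60.1% and 23.6% of all peaks. Of 27352 gene body peaks within 20 kb of the start, 45.3% were higher and 27.6% lower.

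The pass of the list separated the directions more than distance, width, place along the transcript or chromosome did. Of 14575 first-pass far gene body peaks, 572 (3.92%) were higher and 12117 (83.1%) lower, with a median of -0.916, against 2.89% and 87.1% of all first-pass peaks. Of 45723 second-pass ones, 26013 (56.9%) were higher and 5178 (11.3%) lower, with a median of 0.34, against 52.6% and 12.8% of all second-pass peaks. The first pass held 24.2% of the far gene body peaks, 31.7% of all peaks and 65.2% of gene desert peaks. Since nothing states what the passes are, pass and direction cannot be told apart. If the peaks were found in these same hMeDIP libraries, a peak may have entered the list only through the group where it is high. That was not tested, so the counts of calls may depend on how the peaks were chosen.

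**Figure D2:**
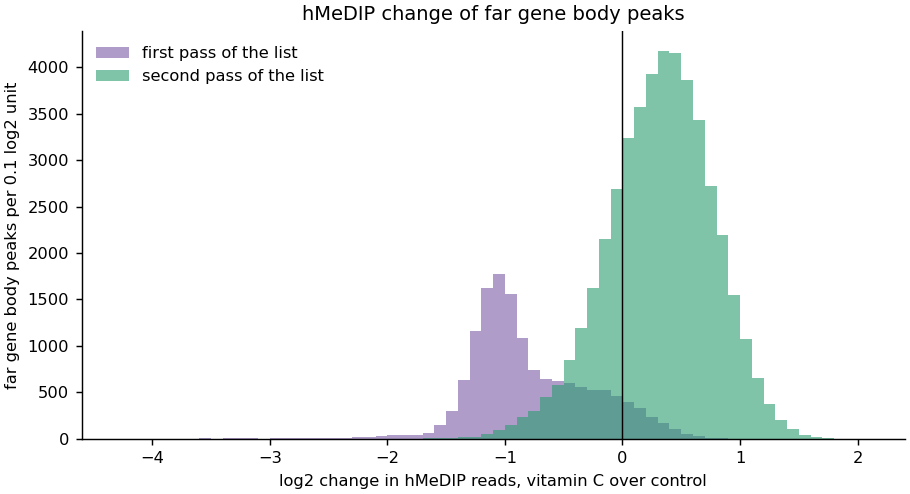
Number of far gene body peaks (vertical axis, per 0.1 log2 unit) by log2 change in hMeDIP reads, vitamin C over control (horizontal axis), coloured by pass of the peak list. The first-pass peaks centre on a median of -0.916 and the second-pass peaks on 0.34, and the pooled quartiles are -0.333 and 0.53.

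Input DNA showed 0 called far gene body peaks of 60260 tested (edgeR), against 0% of all input peaks tested. At an unadjusted p under 0.05 edgeR gave 1347 higher and 1477 lower, and DESeq2 called 0. Tested as a change of hMeDIP over input, 15391 (25.5%) were higher and 12743 (21.1%) lower, against 20.8% and 28.3% of all peaks. Of the peaks called in hMeDIP alone, 15040 higher ones (56.6%) and 12576 lower ones (72.7%) passed this test too.

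The peaks with the smallest p show what such changes look like. Values are in CPM, with reads in peaks times a scaling factor (TMM) as the library size. They are given first for libraries 1 and 3 summed and then for library 2. The gained peak with the smallest p lay in Zeb2, a transcriptional repressor that Schwann cells need in order to differentiate (chromosome 3, 29953147 to 29955967, 29644 bases from the start). It had 28.5 and 28.4 CPM with vitamin C, against 12.2 and 12.2 CPM in controls, a log2 change of 1.22 ± 0.06 (SE; edgeR, adjusted p = 3.93e-21). A peak in Cdh13, which encodes T-cadherin (chromosome 19, 50943534 to 50946369), had 26.7 and 26.3 CPM with vitamin C, against 13.4 and 13.8 CPM in controls (0.97 ± 0.06). A peak in Stard13, a GTPase-activating protein (chromosome 12, 1147933 to 1150645), had 31.1 and 29.6 CPM with vitamin C, against 16.5 and 15.2 CPM in controls (0.92 ± 0.06). Groups that do not overlap were a condition of this choice, and a small p favours close values within a group. The most distant of the 8 gained peaks lay 261665 bases into Itga9, an integrin alpha subunit (chromosome 8, 127532044 to 127533864). It had 13.8 and 15.4 CPM with vitamin C, against 6.19 and 6.25 CPM in controls (1.22 ± 0.08). The other 4, in Ajap1, Slc12a7, Prag1 and Atrnl1, rose by 1.09 to 1.11. All 8 were second-pass peaks.

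The log2 changes of the 8 lost peaks with the smallest p ran from -1.64 to -3.12. The one with the smallest p lay in Cdk5rap1, a tRNA-modifying enzyme (chromosome 3, 149796083 to 149797477, second pass), with 6.89 and 6.45 CPM with vitamin C, against 20.8 and 21.5 CPM in controls (-1.64 ± 0.07; edgeR, adjusted p = 1.75e-23). A peak in Adam12, a membrane metalloproteinase (chromosome 1, 206049013 to 206049821, second pass), had 4.44 and 4.54 CPM with vitamin C, against 15.8 and 14.5 CPM in controls (-1.77 ± 0.08). Both are exceptions to the trend of their pass. The other 6 were first-pass peaks, among them one in Serpine2, a serine protease inhibitor (chromosome 9, 85564419 to 85565047). It had 0.865 and 0.744 CPM with vitamin C, against 7.42 and 6.72 CPM in controls (-3.12 ± 0.14). A peak in Rb1cc1, a protein that starts autophagy (chromosome 5, 13069036 to 13069825), had 1.18 and 0.918 CPM with vitamin C, against 8.0 and 7.44 CPM in controls (-2.84 ± 0.13). One in Arhgap18, another GTPase-activating protein (chromosome 1, 19293541 to 19294252), had 1.07 and 1.19 CPM with vitamin C, against 7.7 and 7.48 CPM in controls (-2.77 ± 0.13). Those in Crtc3, Tdrd12 and Bahcc1 fell by 1.83, 2.06 and 1.92. All 16 peaks kept their sign when scaled by all counted reads and when set over input, but neither step was a separate check. The scaling moved the median far gene body peak by 0.434, less than any of these losses, and could only raise the gains. The other step used the same hMeDIP counts, with an input in which 0 peaks were called.

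Distance from the start carried less than the pass did. Between 20 and 50 kb, 45.3% of 23030 peaks were higher and 27.7% lower. Beyond 500 kb, 32.9% of 875 were higher and 43.4% lower (53.5% and 33.1% when scaled by all counted reads), and the medians went through 0.188, 0.185, 0.164, 0.127 and -0.069 over 5 bins of rising distance. The first pass held 22.9% of the nearest bin and 39.5% of the farthest. Within the second pass the medians were 0.345, 0.342, 0.337, 0.323 and 0.316, and within the first -0.884, -0.905, -0.92, -0.979 and -1.06. Place along the transcript mattered little: in 4 equal stretches of it, from the start on, 45.0%, 44.3%, 43.3% and 44.2% of peaks were higher.

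Width was tied to the pass as well. Of 7218 peaks of at most 400 bases, 30.3% were higher and 47.0% lower (47.7% and 40.9% when scaled by all counted reads), and the first pass held 46.6% of them. Of those narrow peaks the first pass had 0.0% higher and 98.0% lower, and the second 56.8% higher and 2.52% lower. Of 5985 peaks of 1500 bases or more, 51.0% were higher and 20.7% lower, with 12.4% in the first pass. Among 742 wide first-pass peaks 23.0% were higher and 42.0% lower, so the first pass did not fall as a whole. On the X chromosome 16.9% of 486 far gene body peaks were higher and 64.8% lower (60.1% first pass), against 44.3% and 28.4% of 59811 on the autosomes, while 12.6% of all 2835 X-linked peaks were higher and 73.5% lower.

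Peaks of 1 gene were mixed. Among 1322 hosts with 10 or more called far gene body peaks, 1283 had called peaks of both directions, 89 had at least 90% of them higher and 43 at least 90% lower. Both directions are to be expected with so many calls, since 44.1% of all far gene body peaks were higher and 28.7% lower. Summed over all far gene body peaks of a host, 3088 of 6341 hosts (48.7%) were higher and 1831 (28.9%) lower in edgeR. Over all 135049 units of that fit, 39.6% were higher and 37.4% lower. Most of these units are single intergenic peaks (103414 outside gene deserts and 3207 in them). They are thus an unlike background for sums over several peaks.

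The 5 hosts with most far gene body peaks are very long genes. Rbms3, an RNA-binding protein, held 240, of which 122 were higher and 69 lower, and their sum had 1430 and 1420 CPM with vitamin C, against 1220 and 1200 CPM in controls (0.24 ± 0.03; edgeR, adjusted p = 6.22e-10). Cdh13 held 227, of which 84 were higher and 78 lower, and its sum had 1090 and 1070 CPM with vitamin C, against 1050 and 1040 CPM in controls (0.04 ± 0.03; edgeR, adjusted p = 0.237). Scaled by all counted reads, this sum rose by 0.37. Sums had scaling factors of their own, so a change of 0 in a sum is not the same point as 0 in a single peak. All counted reads moved the Cdh13 sum from 0.04 to 0.37, and the median far gene body peak by 0.434. Gpc6, a glypican of the cell surface, held 180, Ptprm, a receptor tyrosine phosphatase, 169 and Cdk14, a cyclin-dependent kinase, 146. Their sums rose by 0.23, 0.27 and 0.24. Ptprm also held a peak, 440983 bases from its start (chromosome 9, 114940566 to 114942359), with 14.7 and 14.0 CPM with vitamin C, against 28.1 and 28.2 CPM in controls (-0.96 ± 0.06).

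Among the 833 hosts with 20 or more far gene body peaks, those with the highest and lowest median peak were picked after their values were seen. The highest median, 0.895, was that of Itgb8, an integrin subunit that activates TGF-beta, where 18 of 21 peaks were higher and 1 lower. The median was 0.823 in Tnks, a poly-ADP-ribose polymerase (32 of 37 higher), 0.799 in Tenm3, a teneurin adhesion molecule (39 of 49), 0.79 in Cdk17 (22 of 23, 0 lower) and 0.763 in Stard13 (37 of 42). The sums of these 5 hosts rose by 0.82, 0.78, 0.65, 0.72 and 0.72, and the RNA of each also rose, by 0.74, 0.94, 0.29, 0.39 and 0.86. Ankh, a membrane transport protein with a median of 0.692 (23 of 30 higher), had an RNA change of 0.10 that did not pass (edgeR, adjusted p = 0.232). The RNA of Tenm3 did not pass when control library 1, control library 2 or vitamin C library 2 was left out. The lowest median, -1.12, was that of Ksr2, a scaffold of the Ras and MAP kinase pathway, where 1 of 24 peaks was higher and 23 were lower. Tmem132d, Dmd, Camta1 and Dpp6 followed, with medians of -1.09, -1.04, -1.04 and -1.03. In Ksr2, Dpp6, Caln1 and Shank2 the RNA had at most 15 reads in any library and was not tested, while in Tmem132d (0.12) and Camta1 (0.45) it was tested and did not pass (edgeR, adjusted p = 0.765 and 0.207). First-pass peaks made up 23 of 24 in Ksr2 and 24 of 29 in Dmd, against 1 of 21 in Itgb8 and 0 of 23 in Cdk17.

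**Figure D3:**
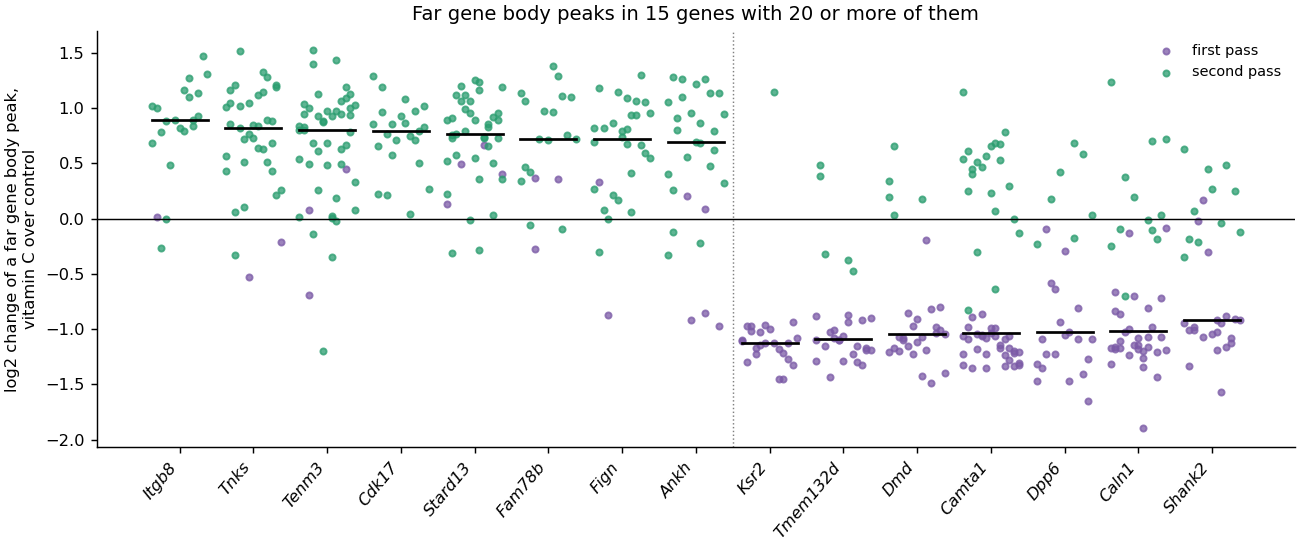
Log2 change of each far gene body peak (vertical axis, vitamin C over control) in 15 host genes with 20 or more of them, 8 with high and 7 with low medians, coloured by pass of the list; lines are medians. Medians run from 0.895 in Itgb8 to -1.12 in Ksr2, and the low group consists mostly of first-pass peaks.

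RNA is a readout that took no part in choosing the peaks. It was tested in 4942 of the 6341 hosts, of which 1465 (29.6%) rose and 688 (13.9%) fell (edgeR), against 19.1% and 21% of all 12925 genes tested. In bulk RNA, fewer cells of a type and less RNA per cell cannot be told apart. The Schwann cell marker list summed to 10100 to 11000 CPM with vitamin C and 10900 to 11100 CPM in controls, with all 8 markers present, of which Gfap (0.96) and Cdh19 (0.67) rose and S100b (-0.99) and Erbb3 (-0.16) fell. The pericyte and smooth muscle list summed to 188 to 216 CPM with vitamin C and 74.2 to 76.9 CPM in controls, and the 3 of its 7 markers that were tested (Tagln, Des, Pdgfrb) rose. Its markers Rgs5, Acta2, Cnn1 and Notch3 had at most 10 reads in any library. The fibroblast list, mostly Col1a1, summed to 9270 to 10800 CPM with vitamin C and 4510 to 4710 CPM in controls, with Dcn at 0 in every library. Of the 4 fibroblast markers tested 1 rose and 3 fell. Macrophage, endothelial and neuronal lists reached at most 1.79, 4.21 and 69.3 CPM with vitamin C and 1.57, 1.83 and 71.4 CPM in controls. The part of these markers in the results below was not tested.

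Hosts with too little RNA to test differed from the rest in the direction of their far gene body peaks. In hosts whose RNA was abundant enough to test, 47.0% of 53148 peaks were higher and 25.6% lower. In the 1399 hosts below that limit, 22.7% of 7150 were higher and 51.9% lower (44.1% and 39.9% when scaled by all counted reads, against 71.2% and 13.3% in tested hosts). The log2 ratio of reads in the first of these classes to reads in the second was 3.38 ± 0.0189 with vitamin C and 2.975 ± 0.0471 in controls, a difference of 0.405 (exact permutation p = 0.333, n = 2 each). It differed by 0.338 within the first pass and by 0.138 within the second, and in input DNA by -0.0155 (exact permutation p = 0.2, n = 3 each). The first pass held 21.1% of the peaks in hosts with tested RNA and 47.3% of those in hosts below the limit. Within the second pass 58.2% and 42.2% were higher.

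Among tested hosts the share of peaks called higher was not ordered by the RNA change. In 368 hosts whose RNA rose by more than 1 log2 unit, 42.4% of peaks were higher and 30.2% lower. In 1097 hosts whose RNA rose by less, 51.5% were higher and 22.2% lower, and in 2789 hosts whose RNA did not pass, 46.4% and 25.9%. In 563 hosts whose RNA fell by up to 1 unit, 44.3% were higher and 26.9% lower, and in 125 whose RNA fell by more, 35.3% and 32.0%. The highest share thus belonged to hosts with a modest rise in RNA, over both passes and in each. In this order of classes, the shares higher were 56.0%, 61.6%, 57.6%, 54.4% and 49.1% in the second pass. In the first they were 3.7%, 6.31%, 4.53%, 5.59% and 1.62%. The log2 ratio of reads in the first class to the last differed by 0.0858, vitamin C minus control (exact permutation p = 0.333, n = 2 each). It differed by 0.0785 within the second pass and by -0.00847 within the first. By sums, 158 of the 368 hosts with strongly raised RNA were higher and 120 lower, and 46 of the 125 with strongly lowered RNA were higher and 42 lower. Across 4942 hosts the RNA change and the change of the sum had a Spearman coefficient of -0.0335 and a Pearson r of -0.0446. Across the 776 hosts with 20 or more peaks and tested RNA, the Spearman coefficient was 0.00934. Genes share libraries and are not independent replicates.

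**Figure D4:**
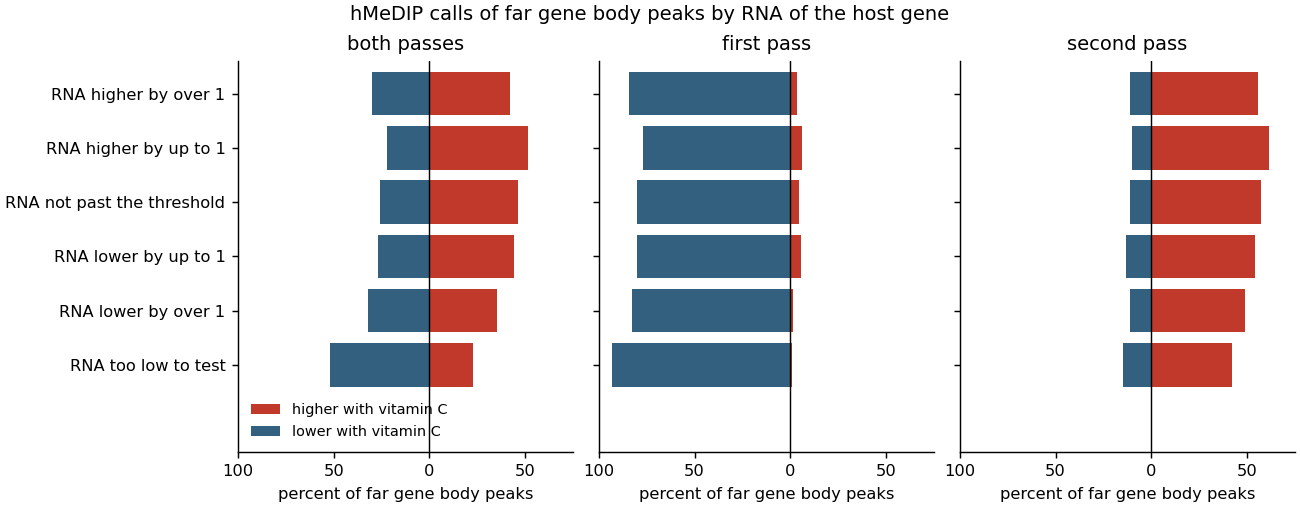
Percent of far gene body peaks called higher (right of 0) and lower (left of 0) with vitamin C, by the RNA change of the host gene (log2 units), over both passes and in each pass. Over both passes the share called higher is 51.5% where RNA rose by up to 1, 35.3% where it fell by more than 1 and 22.7% where RNA was too low to test, and in the first pass most peaks of every class are lower.

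The 10 hosts with the smallest p of the sum among those with an RNA change of more than 1 log2 unit moved the same way in both assays in 6 cases and in opposite ways in 4. In Zeb2, 28 of 35 far gene body peaks were higher and 2 lower, and the sum had 330 and 325 CPM with vitamin C, against 188 and 186 CPM in controls (0.81 ± 0.03; edgeR, adjusted p = 2.68e-27). Its RNA had 1990, 1690 and 1590 CPM with vitamin C, against 617, 564 and 563 CPM in controls (1.60 ± 0.09; edgeR, adjusted p = 5.14e-06). In Sema6d, a transmembrane semaphorin, 14 of 16 peaks were higher and 0 lower, and both the sum (0.70 ± 0.04) and the RNA (1.29 ± 0.11) rose. Fam78b, Fign, a microtubule-severing ATPase, and Wwc2, a regulator of the Hippo pathway, rose in both as well, by 0.78, 0.61 and 0.54 in the sum and by 1.07, 1.38 and 1.06 in RNA. The RNA change of Fam78b was 0.61 without vitamin C replicate 1, and its call was lost without control replicate 2 or 3 (edgeR, adjusted p = 0.0531 and 0.0534).

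In 4 of the 10 the sum fell while RNA rose. Dmd, the X-linked gene for dystrophin, the membrane link between cytoskeleton and laminin receptors, had 23 of 29 peaks lower and 2 higher. Its sum had 70.2 and 63.6 CPM with vitamin C, against 109 and 120 CPM in controls (-0.76 ± 0.04), and its RNA 165, 130 and 116 CPM with vitamin C, against 67.4, 56.7 and 46.6 CPM in controls (1.27 ± 0.16; edgeR, adjusted p = 3.62e-04). Eya2, a transcriptional coactivator, had 13 of 17 peaks lower, a sum change of -0.67 ± 0.04 and an RNA change of 3.06 ± 0.26. Trdn, which encodes triadin of the sarcoplasmic reticulum, had all 6 peaks lower (-1.19) and RNA higher (1.28). Mid1, also X-linked, had both of its peaks lower (-1.14) and RNA higher (1.64). In Btbd11 the sum (-0.67) and the RNA (-1.23) both fell, the RNA at 0.359 ± 0.13 CPM with vitamin C and 0.83 ± 0.133 CPM in controls (SD, n = 3 each), a difference in RNA that did not pass in DESeq2, nor in edgeR when replicate 2 of either group was left out. First-pass peaks made up 24 of 29 in Dmd, 14 of 17 in Eya2, 6 of 6 in Trdn, 2 of 2 in Mid1 and 14 of 17 in Btbd11, against 3 of 35 in Zeb2 and 0 of 16 in Sema6d.

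Among 13 lists of host genes, the shares called spread widely around the 44.1% higher and 28.7% lower of all far gene body peaks. Single hosts named below as examples of a list were chosen after their values were seen, whereas list peaks given with positions are those of smallest p. The highest share was that of the immature and repair state, with 8 of 20 genes as hosts, 5 sums higher and 1 lower, and 161 peaks, 63.4% higher and 12.4% lower (median 0.485). Of these peaks, 123 lay in Runx2 and Cdh2, where 82 were higher and 13 lower, and in the other 6 hosts 20 of 38 were higher and 7 lower. Runx2, a transcription factor of the repair programme, had 44 of 60 peaks higher and 5 lower (sum 0.57 ± 0.03). Its peak of smallest p (chromosome 9, 18704851 to 18707450) had 12.8 and 13.5 CPM with vitamin C, against 6.02 and 6.72 CPM in controls (1.07 ± 0.08). A peak in Gap43, a growth cone protein (chromosome 11, 58689634 to 58690746), had 4.61 and 4.61 CPM with vitamin C, against 1.73 and 2.21 CPM in controls (1.30 ± 0.14). Notch1, a receptor active in immature Schwann cells, had 6 of 8 peaks higher and 0 lower (sum 0.50), with an RNA change of -0.05 that did not pass.

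Genes of the Hippo pathway, which regulates growth and Schwann cell differentiation through YAP, TAZ and TEAD, came next. Of 22, 16 were hosts, with the sums of 13 higher and 0 lower, and of 299 peaks 60.2% were higher and 14.0% lower. Wwtr1, which encodes TAZ, had 28 of 35 peaks higher and 2 lower (sum 0.54, RNA 0.48). Tead1, its DNA-binding partner, had 44 of 67 higher and 10 lower (sum 0.33), and Yap1 9 of 18 higher and 2 lower (sum 0.35, RNA 0.68). The peak of smallest p in Wwtr1 (chromosome 2, 147582147 to 147583298) had 9.58 and 9.8 CPM with vitamin C, against 4.53 and 4.34 CPM in controls (1.11 ± 0.09). Vgll4, which competes for TEAD, had 13 of 20 peaks higher (sum 0.51), with an RNA change of 0.06 that did not pass. In RNA 8 of the 16 rose and 1 fell. Wwtr1, Tead1 and Yap1, with 120 of these peaks, are also on the list of promyelinating regulators, so the 2 lists are not separate results.

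Promyelinating regulators had 17 hosts of 27 genes, 13 sums higher and 2 lower, and 59.2% of 370 peaks higher and 14.9% lower. They include Zeb2, and Adgrg6, the receptor that starts myelination, with 18 of 29 peaks higher and 3 lower (sum 0.43). Not all peaks of the list rose: one in the IGF1 receptor gene Igf1r (chromosome 1, 129103595 to 129104254) had 5.61 and 4.71 CPM with vitamin C, against 10.2 and 10.8 CPM in controls (-0.98 ± 0.09). The myelin proteins and lipid enzymes, by contrast, were close to the background of all far gene body peaks, with 11 hosts of 23, 4 sums higher and 2 lower, and 45.2% of 104 peaks higher and 28.8% lower. Mbp, myelin basic protein, had 12 of 23 higher and 3 lower (sum 0.35, RNA 0.77). Gldn, gliomedin of the node of Ranvier, had 0 of 4 called in either direction (sum 0.07, edgeR, adjusted p = 0.249, and 0.40 and past the threshold when scaled by all counted reads) although its RNA rose by 3.81. A peak in Sh3tc2, a gene of hereditary neuropathy (chromosome 18, 57337555 to 57338437), had 4.42 and 4.41 CPM with vitamin C, against 13.2 and 12.9 CPM in controls (-1.57 ± 0.08). A peak in Ugt8, which makes the myelin lipid galactosylceramide (chromosome 2, 229655351 to 229655717), had 0.406 and 0.223 CPM with vitamin C, against 3.4 and 3.53 CPM in controls (-3.32 ± 0.21).

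Of 29 genes of TGF-beta and BMP signalling 22 were hosts, with 14 sums higher and 2 lower, and 55.8% of 326 peaks were higher and 19.9% lower. The 14 included Tgfbr2, with 21 of 26 peaks higher and 2 lower (sum 0.62), and its co-receptor Tgfbr3, with 28 of 41 and 4 (0.52). The BMP mediator Smad1 was another, with 10 of 11 and 1 (0.66). Ltbp1, which holds latent TGF-beta in the matrix, had 22 of 66 higher and 22 lower (sum 0.02, edgeR, adjusted p = 0.603, and 0.35 and past the threshold when scaled by all counted reads) while its RNA fell by 1.34. The peak of smallest p in this list was a lost one in Smad4, the shared mediator (chromosome 18, 69630690 to 69631111), with 0.341 and 0.372 CPM with vitamin C, against 3.72 and 3.27 CPM in controls (-3.33 ± 0.20).

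The basal lamina and laminin receptor list had 26 hosts of 32, 17 sums higher and 6 lower, with 51.1% of 548 peaks higher and 21.9% lower, and RNA higher in 16 of 20 and lower in 1. Lama2, the laminin chain of the Schwann cell basal lamina, had 63 of 119 peaks higher and 18 lower (sum 0.29), Lamc1 30 of 38 and 3 (0.54) and Col4a1 13 of 21 and 2 (0.42). The RNA of these 3 rose by 1.34, 0.43 and 1.05. Utrn, the dystrophin relative utrophin, had 64 of 109 peaks higher and 12 lower (sum 0.35). The 3 peaks of smallest p in this list were lost ones, in Dmd (-1.04), Lama2 (-0.996) and Lamb3 (-0.99). That in Lama2 (chromosome 1, 18993090 to 18994237) had 6.08 and 6.55 CPM with vitamin C, against 11.9 and 13.7 CPM in controls. Fibrillar and microfibril matrix genes had 22 hosts of 29, 14 sums higher and 7 lower, and 45.2% of 365 peaks higher and 26.6% lower, near the background of far gene body peaks, although 17 of 20 rose in RNA and 1 fell. Col5a2 had 13 of 16 peaks higher and 3 lower (sum 0.58) and Col11a1 5 of 6 lower and 1 higher (sum -0.87), while the RNA of both rose, by 1.26 and 3.18. The 3 peaks of smallest p were again lost ones, in Col5a1 (-1.34), Loxl2, a collagen cross-linking enzyme (-1.31), and Fbln5, an elastic fibre protein (-1.32). The one in Col5a1 (chromosome 3, 6575142 to 6576948) had 5.81 and 6.79 CPM with vitamin C, against 15.9 and 15.3 CPM in controls. RNA rose for 5 of these 6 genes, and that of Lamb3 was not tested.

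Lists of long neural and muscle genes had fewer gains. Of 38 calcium and potassium channel genes 34 were hosts, with 6 sums higher and 17 lower, and 29.0% of 549 peaks were higher and 43.5% lower (median -0.0866), an order that turned to 52.8% higher and 30.4% lower when scaled by all counted reads. Cacna2d3, a calcium channel subunit, had 16 of 18 lower and 2 higher (sum -0.91), and the potassium channel Kcnt2 and the calcium release channel Ryr2 had all 6 of their peaks lower (sums -1.16 and -0.91). Neural cell adhesion genes had 37 hosts of 42, with 8 sums higher and 21 lower, and 37.5% of 1190 peaks higher and 35.7% lower. The contactin Cntn5 had 8 of 9 lower (sum -0.94), the neurexin relative Cntnap4 6 of 6 (-1.10) and Nrxn3 30 of 48 lower and 5 higher (-0.44, a call lost when scaled by all counted reads, -0.11). Cadm2 had 3 of 3 lower (-1.06) while its RNA rose by 3.16. A peak in Ntm, the adhesion protein neurotrimin (chromosome 8, 30144935 to 30145498), had 0.721 and 0.918 CPM with vitamin C, against 6.26 and 6.38 CPM in controls (-2.99 ± 0.15).

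Axon guidance genes had 33 hosts of 35, with 14 sums higher and 14 lower, and 38.9% of 597 peaks higher and 32.7% lower. The semaphorin receptor Nrp2 had 14 of 30 higher and 7 lower (sum 0.13, RNA 2.31), and the semaphorin Sema5a 7 of 7 lower (sum -1.05). Long muscle and sarcomere genes had 19 hosts of 22, 8 sums higher and 9 lower, and 35.9% of 284 peaks higher and 37.7% lower (59.5% and 28.2% when scaled by all counted reads), while 14 of 17 rose in RNA and 0 fell. Neb, the thin-filament protein nebulin, had 15 of 25 higher and 3 lower (sum 0.34, RNA 1.92). A peak in Synpo2, an actin-binding protein (chromosome 2, 227351270 to 227351822), had 0.288 and 0.174 CPM with vitamin C, against 3.87 and 3.61 CPM in controls (-3.92 ± 0.22).

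The order of the lists ran broadly with their share of first-pass peaks, which was 11.8% in the immature and repair list and 38.4% in the channel list. Within the second pass the medians still ran from 0.575 in the immature and repair list to 0.218 in the channel list, and the share called higher from 71.1% to 45.9%. Within the first pass every list had a negative median, from -0.509 in the Hippo list to -1.05 in the TET list, and at most 11.6% called higher. Scaled by all counted reads, more peaks were higher than lower in each of the 13 lists.

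**Figure D5:**
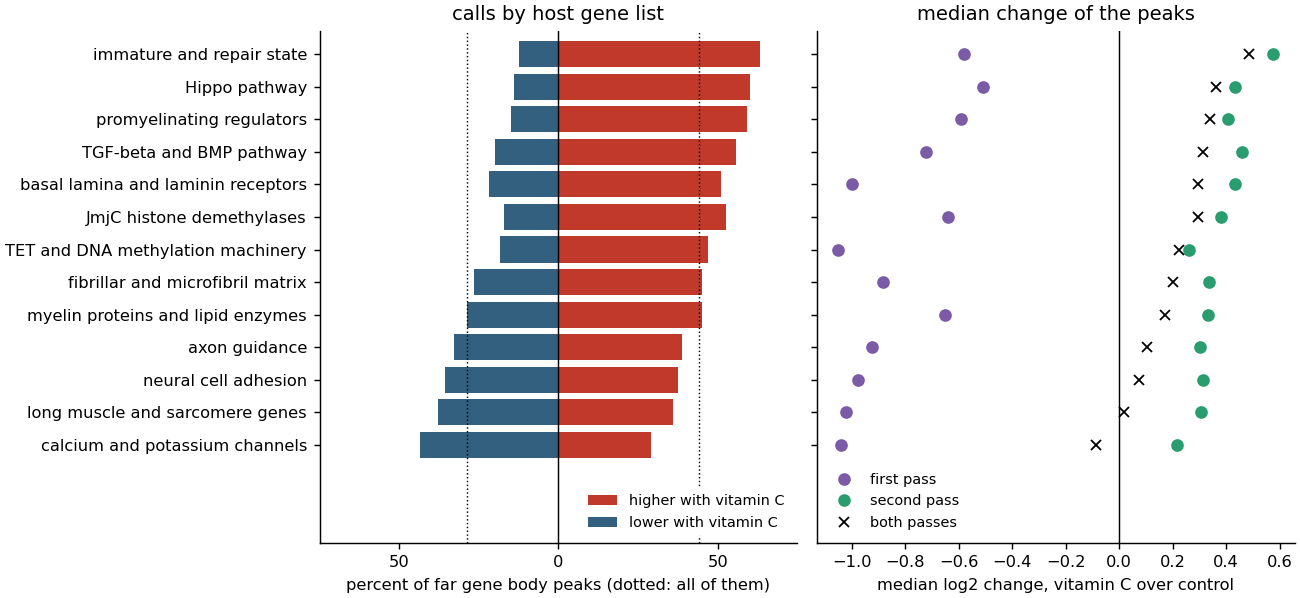
Left, percent of far gene body peaks called higher (right of 0) and lower (left of 0) with vitamin C in 13 lists of host genes, with dotted lines at the 44.1% and 28.7% of all far gene body peaks; right, median log2 change of the peaks of each list in the first pass, the second pass and both. The share called higher runs from 63.4% in the immature and repair list to 29.0% in the channel list, and every list is above 0 in the second pass and below 0 in the first.

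The machinery that writes and reads 5hmC carried far gene body peaks of its own. Of 16 genes of the TET and DNA methylation list 9 were hosts, with 3 sums higher and 2 lower, and 46.9% of 81 peaks were higher and 18.5% lower. Tet3 had 18 of 29 peaks higher and 0 lower, and its sum had 196 and 199 CPM with vitamin C, against 150 and 151 CPM in controls (0.40 ± 0.03; edgeR, adjusted p = 1.04e-14). Its RNA had 146, 101 and 95.8 CPM with vitamin C, against 83.7, 78.1 and 88.4 CPM in controls (0.45 ± 0.15; edgeR, adjusted p = 0.0378), and the change was 0.24 without vitamin C replicate 1. With any control library left out, the RNA of Tet3 did not pass (edgeR, adjusted p = 0.103, 0.132 and 0.0836). Tet1 and Tet2 had 4 and 10 peaks, with sums that did not pass (0.13 ± 0.07 and 0.0 ± 0.05; edgeR, adjusted p = 0.0955 and 0.965), but rose by 0.46 and 0.33 when scaled by all counted reads. In Tet2 5 peaks were higher and 2 lower, and the lost one of smallest p (chromosome 2, 238735801 to 238736434) had 0.721 and 0.496 CPM with vitamin C, against 4.65 and 4.81 CPM in controls (-2.87 ± 0.17). A peak in Uhrf2, a reader of 5hmC (chromosome 1, 248254742 to 248255349), had 5.33 and 5.08 CPM with vitamin C, against 2.2 and 2.21 CPM in controls (1.25 ± 0.12).

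The JmjC histone demethylases, which use the same cofactors as the TET enzymes, had 16 hosts of 20, with 12 sums higher and 2 lower, and 52.7% of 112 peaks higher and 17.0% lower. In RNA 1 of the 16 passed in edgeR, lower with vitamin C. Jarid2, a JmjC protein that works with Polycomb and has no demethylase activity, had 20 of 27 peaks higher and 3 lower. Its sum had 113 and 111 CPM with vitamin C, against 82.5 and 83.0 CPM in controls (0.44 ± 0.04), and its RNA change of -0.06 did not pass, although it was -0.30 without vitamin C replicate 1 and then did (edgeR, adjusted p = 0.00105). A peak in Kdm4a, a histone H3 demethylase (chromosome 5, 136991786 to 136992708), had 7.18 and 6.94 CPM with vitamin C, against 3.96 and 4.0 CPM in controls (0.84 ± 0.10). One in Jmjd1c (chromosome 20, 22842478 to 22843230) had 5.33 and 4.96 CPM with vitamin C, against 9.17 and 10.3 CPM in controls (-0.88 ± 0.09).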

How the data were processed

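Counts of reads per peak (hMeDIP, input) and per gene (RNA) were used as deposited. The labels name a Qiagen extraction, Ribo-Zero depletion and an Active Motif hMeDIP kit. Per the submitters' processing notes, CASAVA 1.4, Trim Galore, STAR, BWA and HTSeq were used. Their roles, the genome build and the peak caller are not stated in these sources, so positions are those of the peak list and no sequence is printed. Rows that name no peak or gene, 56.11% to 69.15% of counted hMeDIP reads, stayed out of the library sizes and tests of the main fits. They do count in shares of all counted reads, in shares set over input and in the scaling by all counted reads.

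Peaks, sums per host gene and class, and genes were each tested on the whole table with edgeR 4.0.16 (R 4.3.3; quasi-likelihood F test, TMM factors, filterByExpr, treatment as the only term, Benjamini-Hochberg threshold 0.05). The test of hMeDIP over input added a term per sample, the assay and its interaction with treatment. Shares and ratios of classes were compared with exact permutation tests (scipy 1.17.1). DESeq2 1.42.0 was an alternative. Within each group the hMeDIP libraries 1 and 3 had a chi-square per degree of freedom under 1 (0.8962 and 0.9625) and were summed. The limit first set, 1.1, would by itself have summed only the control pair, and that version was run as an alternative. No RNA pair was summed. The inputs 1 and 3 of each group were summed only in the test of hMeDIP over input, to match the hMeDIP samples. All input pairs had values under 1 as well (0.978 to 0.9883), but they were kept apart in tests of input alone. The labels do not say whether replicate numbers pair samples across groups, so no pairing was used. The correlations of deviations for equal numbers were -0.0294, -0.2 and -0.109 in hMeDIP. In RNA they were 0.125, -0.00968 and -0.000972. With 3 libraries per group, such correlations cannot decide the question. The first and second pass were split where positions on chromosome 12 in the list start over.

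The set of peaks and the gene lists were chosen with earlier results of these data known. Genes and peaks are named by these rules: the 8 higher and the 8 lower peaks with the smallest p, up to 3 per list, the 5 hosts with most peaks, up to 10 hosts called in both assays with an RNA change above 1, and the peaks nearest the limits. The 8 per direction were taken from peaks whose groups do not overlap, at most 1 per host gene. Names outside these rules are marked as chosen after their values were seen. Results of 1 gene list and 1 host are not reported here. The code was tested on simulated data. Depth sets the precision of each count, and PCR duplicates are not known.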

Additional observations from a re-analysis of the deposited data

How the results depend on the processing

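The deposit holds 3 hMeDIP libraries per group, and summing libraries 1 and 3 left 2 samples per group. At that number no class comparison could pass an exact test. With every library as its own replicate, each class comparison had an exact permutation p = 0.1, the smallest possible for 3 against 3. With 26585 far gene body peaks higher and 17295 lower as reported, DESeq2 gave 15336 higher and 14676 lower, scaling by all counted reads 40983 and 9910, and a distance limit of 50 kb 16145 and 10918. Host sums numbered 873 lower when scaled by all counted reads, against 1831. The vitamin C minus control difference in the share of all counted reads, 3.46 percentage points, was -0.264 in the first pass alone. The causes were not tested, except that the 50 kb limit leaves fewer peaks and the scaling moves every peak by the same shift per library. Leaving out 1 library at a time gave 23494 to 26103 peaks higher and 15985 to 17666 lower, 2734 to 3137 sums higher and 1605 to 1868 lower, and 983 to 1663 hosts higher and 472 to 894 lower in RNA. Summing only the control pair gave 26457 peaks higher and 18113 lower.

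Whether replicate numbers pair the samples is not stated in the labels. With the number as a replicate block, 25238 peaks were higher and 16650 lower, 2941 and 1728 host sums, 1656 and 722 hosts in RNA, and 0 input peaks. With the numbers crossed, a pairing chosen after seeing the data, 27514 peaks were higher and 17561 lower.

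The 55 peaks followed, all called and chosen by smallest p, kept direction and call in all 879 alternatives run. That choice itself favours stable calls. The peaks nearest the limits were not among the 55. Of these, the ones in Pcca (-0.19) and Gnaq (-0.23) turned to 0.28 and 0.2 when scaled by all counted reads, and the others kept their sign. Of the 71 host sums followed, the calls of Camta1 (-0.10), Dpp6 (-0.13), Caln1 (-0.20), Shank2 (-0.11) and Nrxn3 (-0.11) were lost when scaled by all counted reads. On leaving out 1 library the RNA change of Gpc6 ran from -0.35 (without vitamin C replicate 1) to 0.33, against 0.12 with all, and that of Ptprm from -0.17 (without the same library) to 0.20, against 0.07. RNA calls of 7 of 59 named hosts (Fam78b, Btbd11, Tenm3, Tead1, Runx2, Nrxn3, Tet3) were lost under at least 1 alternative.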
